A study of Mus musculus with 6 samples.

Results

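The genes described here encode the enzymes of fatty acid oxidation, with the carriers and kinase that feed or steer the pathway, in resting macrophages grown from the bone marrow of WT and GPS2KO mice. The list held 34 genes, chosen by function. A gene was measured where the platform annotation gave at least 1 probe set whose only symbol was that gene, and the probe set with the highest mean over all 6 arrays then stood for it. This gave values for 30 of the 34, among 18820 genes tested in all. The probe sets annotated to Acadvl and Acsl3 also carried another gene's symbol and were not used. Acsl1 and Ucp2 were not analysed here.

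Each group had 3 samples, with 1 Affymetrix array per sample. WT samples came from wild-type mice, and GPS2KO samples from mice described as a macrophage knockout of GPS2, a subunit of a nuclear receptor co-repressor complex. Neither the Cre driver nor the deleted exons are named by the labels. The mice, all males, were killed at 12 to 16 weeks of age, and all cultures were grown for 7 days in medium with 30% L929-conditioned medium and 10% serum, without a stimulus. Whether each array stands for its own animal is not labelled, so the p-values rest on a spread between samples that may be technical.

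Fatty acid oxidation releases acetyl-CoA from fatty acyl-CoA by a repeated cycle of dehydrogenation, hydration, a further dehydrogenation and thiolysis. Long-chain acyl groups enter mitochondria through the carnitine shuttle, whereas very long-chain and branched acyl groups are first shortened in peroxisomes. In macrophages the pathway has been linked to alternative activation and to the handling of lipid taken up from dying cells. Many of its genes are targets of peroxisome proliferator-activated receptors (PPARs), nuclear receptors on which co-repressor complexes can act.

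Of the 30 measured genes, 2 rose in GPS2KO macrophages, 0 fell and 28 did not pass the threshold, an adjusted p of 0.05 in limma with Benjamini-Hochberg adjustment over all 18820 genes. The 2 rises were those of Echs1, the mitochondrial short-chain enoyl-CoA hydratase, by a factor of 1.18, and of Ehhadh, the peroxisomal bifunctional enzyme, by a factor of 1.28. The share called, 6.67%, lay beside 6.72% of all tested genes, split into 2.90% that rose and 3.83% that fell, and beside 10.6% of the tested genes that were not dim. Dim means a mean log2 signal under 5.49, the 40th percentile, and 0 of the 30 genes were dim. The count of calls in this pathway was thus near the background of the comparison. At an unadjusted p under 0.05 there were 10 of the 30 genes, against 20.8% of all tested genes. That 20.8% includes dim genes, and the share among the tested genes that were not dim was not computed. Of the 12 alternative settings tried, 0 gave more than 3 rises or more than 3 falls, and the calls that came and went are given with each gene.

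The promoters of Echs1 and Ehhadh are printed as a description, and no cause of either rise was tested. PPARs and related receptors bind repeats of the half-site AGGTCA. The 250 bases before each RefSeq gene start (GRCm38.p6) are printed 5′ to 3′ on the gene's strand, with AGGTCA in capitals where it was found. Echs1 lies on the minus strand at chr7:140116422-140116671, and Ehhadh on the minus strand at chr16:21787835-21788084.
Echs1: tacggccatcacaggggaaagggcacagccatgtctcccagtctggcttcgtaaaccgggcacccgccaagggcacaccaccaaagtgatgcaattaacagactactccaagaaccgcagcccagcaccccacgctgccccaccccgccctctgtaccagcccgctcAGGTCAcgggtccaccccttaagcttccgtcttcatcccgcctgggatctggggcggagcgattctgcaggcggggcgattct
Ehhadh: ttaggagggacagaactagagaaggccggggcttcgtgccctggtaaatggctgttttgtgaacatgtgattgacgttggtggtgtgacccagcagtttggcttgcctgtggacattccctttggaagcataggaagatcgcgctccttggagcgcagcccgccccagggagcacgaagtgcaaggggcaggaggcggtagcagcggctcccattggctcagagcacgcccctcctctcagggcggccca
The Echs1 window holds 1 AGGTCA, which begins 83 bases before the gene start, and the Ehhadh window holds none on either strand. Of the 30 measured genes, 25 had a window in the RefSeq table used, and 3 of these (12%) held AGGTCA on either strand: Acadm, Cpt1a and Echs1. Of all 32851 windows of this length, 14.0% held it. The DR1 element, a direct repeat of AGGTCA with 1 base between the copies, was in 0 of the 25 and in 0.0335% of all windows. TCAAGGTCA, the longer half-site of oestrogen-related receptors, which also contains AGGTCA, was in 0 of the 25 and in 0.387% of all windows. Only exact copies were searched for, so imperfect elements were not counted. Both longer strings are so rare over all windows that 0 among 25 genes says little. These are matches of letters in a short window, not sites of binding.

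The Gps2 signal itself, which tests the labels only if its probes lie in the deleted part, fell by 0.75 on the log2 scale (95% confidence interval -0.86 to -0.64, limma adjusted p = 0.000256). The GPS2KO signal of Gps2 was thus still 59.7% of the WT signal. An exact permutation test over 20 arrangements of the arrays gave p = 0.1, the smallest 2-sided p possible with 3 arrays per group. The array medians ran from 5.57 to 5.60. Across genes, arrays of the same group correlated at 0.9989 to 0.9991 (Pearson), and arrays of different groups at 0.9977 to 0.9981. All 8 measured macrophage markers were above the dim limit, Cd68, Csf1r and Adgre1 at means over 12.5 in both groups, and of the list Itgam and Mertk rose. Markers of fibroblasts and stroma were also bright: Sparc was at 12.82 and 12.83, and Postn at 12.24 and 12.19. Of 10 such markers 1 was dim, 1 rose (Dcn) and 3 fell (Col1a1, Pdgfrb, Thy1). Their summed signal ran from 14.43 to 14.47 on the WT arrays and from 14.357 to 14.363 on the GPS2KO arrays, on the log2 scale. The part of these cells in the results below was not tested, and in bulk RNA fewer cells of a type and less RNA per cell cannot be told apart. Of the adipocyte markers, 6 of the 7 measured were dim. Of 30 measured markers of neutrophils, dendritic cells, osteoclasts, red cells, B cells and T cells, 19 were dim, 3 rose (Itgax, Ngp, Ctsk) and 2 fell (Ocstamp, Cd79b). The background for all these marker counts was 6.72% of all tested genes called, and 10.6% of those that were not dim.

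**Figure D1:**
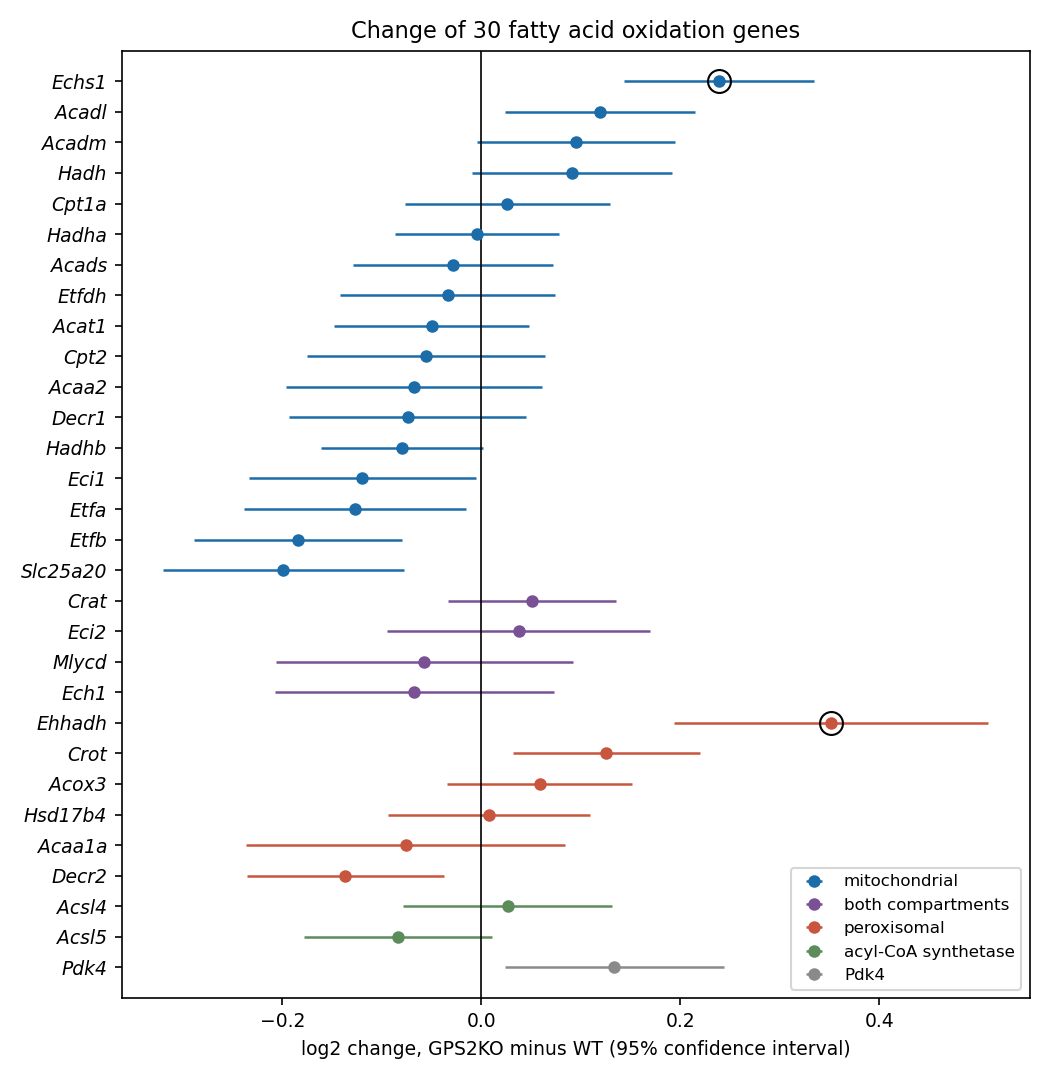
Log2 change (GPS2KO minus WT) of the 30 measured fatty acid oxidation genes, with limma's 95% confidence interval (n = 3 arrays per group); colours give the compartment or role, and rings mark the genes past the threshold. Ringed are Echs1 at 0.24 and Ehhadh at 0.35; the other 28 lie between -0.20 and 0.13.

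The carnitine shuttle comprises Cpt1a, which makes acylcarnitine at the outer mitochondrial membrane and is the regulated entry step, the translocase Slc25a20, and Cpt2, which returns the acyl group to CoA in the matrix. Cpt1a was at 10.42, 10.47 and 10.51 on the WT arrays and at 10.46, 10.55 and 10.47 on the GPS2KO arrays. These ranges overlapped, and the difference was 0.03 (95% confidence interval -0.08 to 0.13, limma adjusted p = 0.798). Cpt2 differed by -0.06 (-0.18 to 0.06), again with overlapping groups.

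Slc25a20 was at 9.03, 9.05 and 9.19 in WT and at 8.91, 8.90 and 8.86 in GPS2KO. Every GPS2KO array was below every WT array, and the difference was -0.20 (SE 0.0520, a factor of 1.15), which did not pass (limma adjusted p = 0.0664). Median centring, a variance trend or the removal of dim genes each brought it past the threshold (lowest adjusted p = 0.0182), but it did not pass with any 1 array left out. Thus the carrier between Cpt1a and Cpt2 had the most negative change of the 30 genes, without reaching the threshold, while the enzymes on either side of it had intervals that include 0.

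Carnitine acyltransferases also act on short and medium chains. Crot, the peroxisomal octanoyltransferase that lets shortened chains leave for mitochondria, was at 9.65, 9.64 and 9.69 in WT and at 9.83, 9.80 and 9.74 in GPS2KO. The groups did not overlap, and the difference of 0.13 (SE 0.0404) did not pass (limma adjusted p = 0.124) except with a variance trend (adjusted p = 0.0440). Crat, the acetyltransferase found in mitochondria and peroxisomes, was at 10.99, 10.97 and 10.95 in WT and at 11.04, 11.01 and 11.01 in GPS2KO. Its groups were apart by a narrow gap, with a difference of 0.05 and a limma adjusted p of 0.488.

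The acyl-CoA dehydrogenases open each turn of the mitochondrial cycle and are named for the chain length they prefer. Acadl, for long chains, was at 9.64, 9.57 and 9.54 in WT and at 9.70, 9.69 and 9.72 in GPS2KO. Acadm, for medium chains, was at 10.66, 10.57 and 10.55 in WT and at 10.71, 10.67 and 10.69 in GPS2KO. In both genes the lowest GPS2KO array was above the highest WT array, but neither difference passed: 0.12 for Acadl (limma adjusted p = 0.147) and 0.09 for Acadm (adjusted p = 0.264). Acads, for short chains, had overlapping groups and a difference of -0.03 (95% confidence interval -0.13 to 0.07).

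Electrons from these dehydrogenases pass to the electron transfer flavoprotein, made of the subunits Etfa and Etfb, and on to its ubiquinone oxidoreductase Etfdh. Etfb was at 11.34, 11.26 and 11.26 in WT and at 11.16, 11.07 and 11.07 in GPS2KO. Etfa was at 8.91, 8.79 and 8.80 in WT and at 8.71, 8.66 and 8.75 in GPS2KO. Both subunits were lower on every GPS2KO array than on any WT array. The differences were -0.18 for Etfb (SE 0.0450, a factor of 1.14, limma adjusted p = 0.0544) and -0.13 for Etfa (SE 0.0479, adjusted p = 0.185), and neither passed. Quantile normalization, median centring, a variance trend or the removal of dim genes each brought Etfb past the threshold (lowest adjusted p = 0.00262). With any 1 array left out it did not pass (adjusted p 0.0619 to 0.169). Etfdh differed by -0.03 (-0.14 to 0.07), with overlapping groups.

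The middle and final steps in the mitochondrial matrix are hydration by Echs1, dehydrogenation by Hadh and thiolysis by Acaa2, and for long chains the trifunctional protein of Hadha and Hadhb does all of these. Echs1 was at 9.33, 9.25 and 9.28 on the WT arrays and at 9.50, 9.51 and 9.56 on the GPS2KO arrays. Mean signals were 9.29 ± 0.04 in WT and 9.52 ± 0.03 in GPS2KO (SD, n = 3 each). The groups were clearly apart, and Echs1 rose by 0.24 (SE 0.0410, 95% confidence interval 0.14 to 0.33, limma adjusted p = 0.0140). Leaving out WT replicate 2 (adjusted p = 0.0508), GPS2KO replicate 2 (0.0503) or GPS2KO replicate 3 (0.0604) took it just over the threshold, and the rise itself lay between 0.22 and 0.26 under all 12 alternatives.

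The enzymes next to Echs1 in the cycle did not pass. Hadh, the short-chain hydroxyacyl-CoA dehydrogenase, was at 11.11, 11.02 and 11.10 in WT and at 11.18, 11.20 and 11.13 in GPS2KO, groups that did not overlap (difference 0.09, limma adjusted p = 0.289). Hadhb was at 9.44, 9.46 and 9.44 in WT and at 9.36, 9.36 and 9.38 in GPS2KO. Its arrays were also apart, in the other direction, with a difference of -0.08 (adjusted p = 0.251). The second Hadhb probe set differed by -0.07. Hadha, which pairs with Hadhb in one protein, differed by -0.0045 with overlapping groups, and its interval of -0.09 to 0.08 was narrow. The thiolases Acaa2 (-0.07) and Acat1 (-0.05), the latter also an enzyme of ketone bodies, had overlapping groups.

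Unsaturated fatty acids need auxiliary enzymes that shift or reduce double bonds. Of these, Eci1 was at 8.47, 8.50 and 8.48 in WT and at 8.43, 8.27 and 8.40 in GPS2KO, apart but with an SD of 0.08 among the GPS2KO arrays (difference -0.12, limma adjusted p = 0.221). The peroxisomal dienoyl-CoA reductase Decr2 was at 10.20, 10.24 and 10.26 in WT and at 10.15, 10.10 and 10.05 in GPS2KO. Every GPS2KO array was lower, and the difference of -0.14 (SE 0.0424) did not pass (adjusted p = 0.112), though it did with a variance trend and when dim genes were left out (lowest adjusted p = 0.0252). The mitochondrial reductase Decr1, the isomerase Eci2 and the dienoyl-CoA isomerase Ech1 had overlapping groups and differences between -0.07 and 0.04.

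The peroxisomal cycle runs through an acyl-CoA oxidase, a multifunctional enzyme and a thiolase. Ehhadh, the multifunctional enzyme named L-bifunctional and a classic PPAR-alpha target in liver, was at 5.95, 5.91 and 6.07 in WT and at 6.45, 6.22 and 6.31 in GPS2KO. Mean signals were 5.98 ± 0.08 in WT and 6.33 ± 0.11 in GPS2KO (SD, n = 3 each), and every GPS2KO array was above every WT array. Ehhadh rose by 0.35 (SE 0.0679, 95% confidence interval 0.19 to 0.51, limma adjusted p = 0.0226). Its signal lay close to the dim limit, where background compresses fold changes. Leaving out WT replicate 1 (adjusted p = 0.0772), WT replicate 2 (0.0756), GPS2KO replicate 1 (0.0562) or GPS2KO replicate 3 (0.0672) ended the call, with rises between 0.29 and 0.40 over all alternatives.

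Hsd17b4, the multifunctional enzyme of the same step that handles branched chains, had overlapping groups and a difference of 0.01 (-0.09 to 0.11, limma adjusted p = 0.946). The oxidase Acox3 differed by 0.06 and the thiolase Acaa1a by -0.08, both with overlapping groups. A second, dimmer Acox3 probe set differed by -0.12, so the sign for Acox3 depended on the probe set. Acaa1a has the close paralog Acaa1b, whose transcripts may share its probes. The rise of Ehhadh therefore stood beside 5 peroxisomal genes that did not pass.

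The remaining genes supply or steer the pathway. Acsl5, a synthetase that activates long-chain fatty acids, was at 10.90, 10.86 and 10.81 in WT and at 10.78, 10.76 and 10.79 in GPS2KO. These groups were apart by a small gap, and the difference of -0.08 did not pass (limma adjusted p = 0.304). Acsl4, which prefers arachidonate, differed by 0.03 with overlapping groups. Pdk4, the kinase that shuts pyruvate dehydrogenase when fat is burned and a PPAR target, was at 8.07, 7.93 and 8.02 in WT and at 8.14, 8.11 and 8.16 in GPS2KO. All 3 GPS2KO arrays were higher, with a difference of 0.13 (95% confidence interval 0.02 to 0.24, adjusted p = 0.158). Mlycd, which removes malonyl-CoA, the inhibitor of Cpt1a, differed by -0.06 with overlapping groups.

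**Figure D2:**
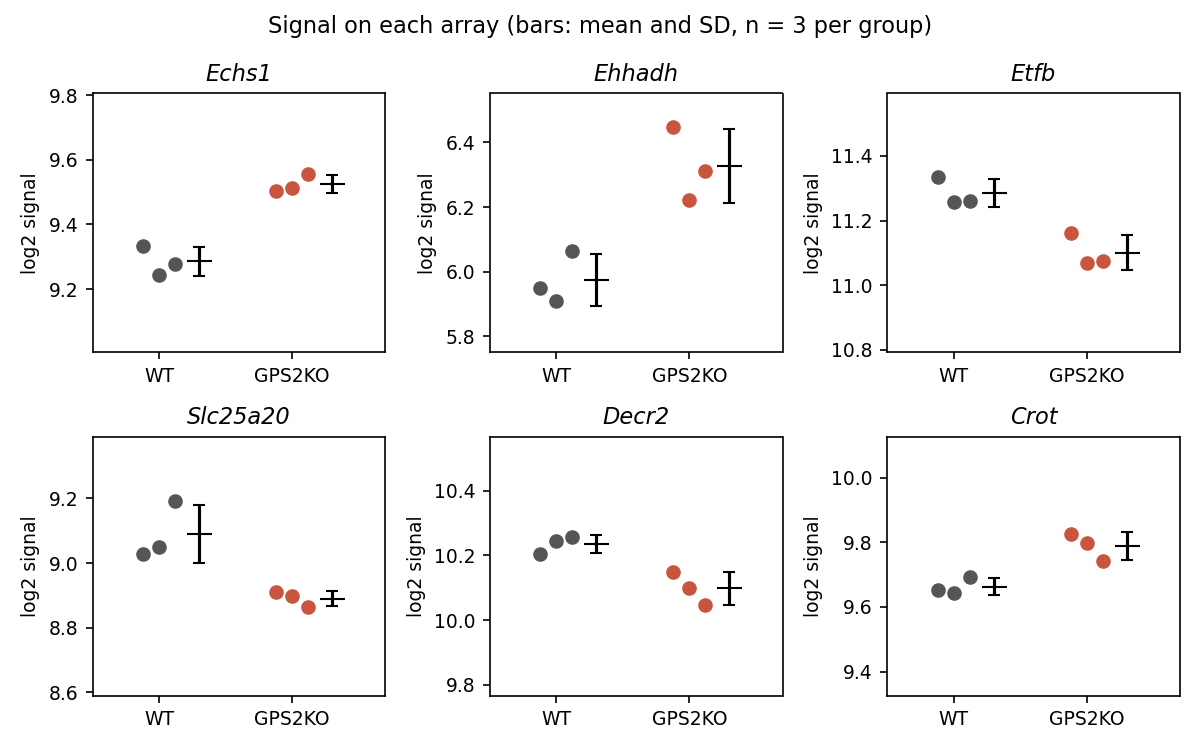
Log2 signal on each array for the genes that passed the threshold in the comparison or under at least 1 alternative setting; dots are arrays, and bars give the mean and SD (n = 3 per group), each panel spanning the same log2 range. In all 6 genes the groups do not overlap, with GPS2KO higher for Echs1, Ehhadh and Crot and lower for Etfb, Slc25a20 and Decr2.

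Set side by side, the mitochondrial and peroxisomal steps both held genes that lay on either side of 0. The 17 mitochondrial genes had a median change of -0.05, with 5 higher and 12 lower means, 1 rise and 0 falls. The 6 peroxisomal genes had a median of 0.03, with 4 higher and 2 lower means, 1 rise and 0 falls. The peroxisomal median was -0.01 when all probe sets of a gene were averaged, which moved only Acox3 among these 6 genes. It was 0.0094 after median centring, 0.0070 without WT replicate 2 and 0.05 without WT replicate 1. The 4 genes of both compartments lay between -0.07 and 0.05. Over all 30 genes the median was -0.03, beside -0.01 for all tested genes, so lower means were the more frequent over all tested genes too. The difference between compartments was not tested.

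The 15 genes whose groups did not overlap split into 8 higher and 7 lower in GPS2KO, directions that held 11.9% and 15.2% of all tested genes. They made up 50% of the 30 genes, beside 27.1% of all tested genes and 37.3% of the tested genes that were not dim. The sizes were small: the median absolute change was 0.08, beside 0.07 for the tested genes that were not dim. For the 28 genes that did not pass, the 95% confidence intervals bound the change that these arrays allow. The interval lay within a factor of 1.2 in either direction for 26 of them, the exceptions being Slc25a20 and Etfb. The widest bounds were a ratio of 0.801 (GPS2KO over WT) for Slc25a20 below and of 1.18 for Pdk4 above.

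**Figure D3:**
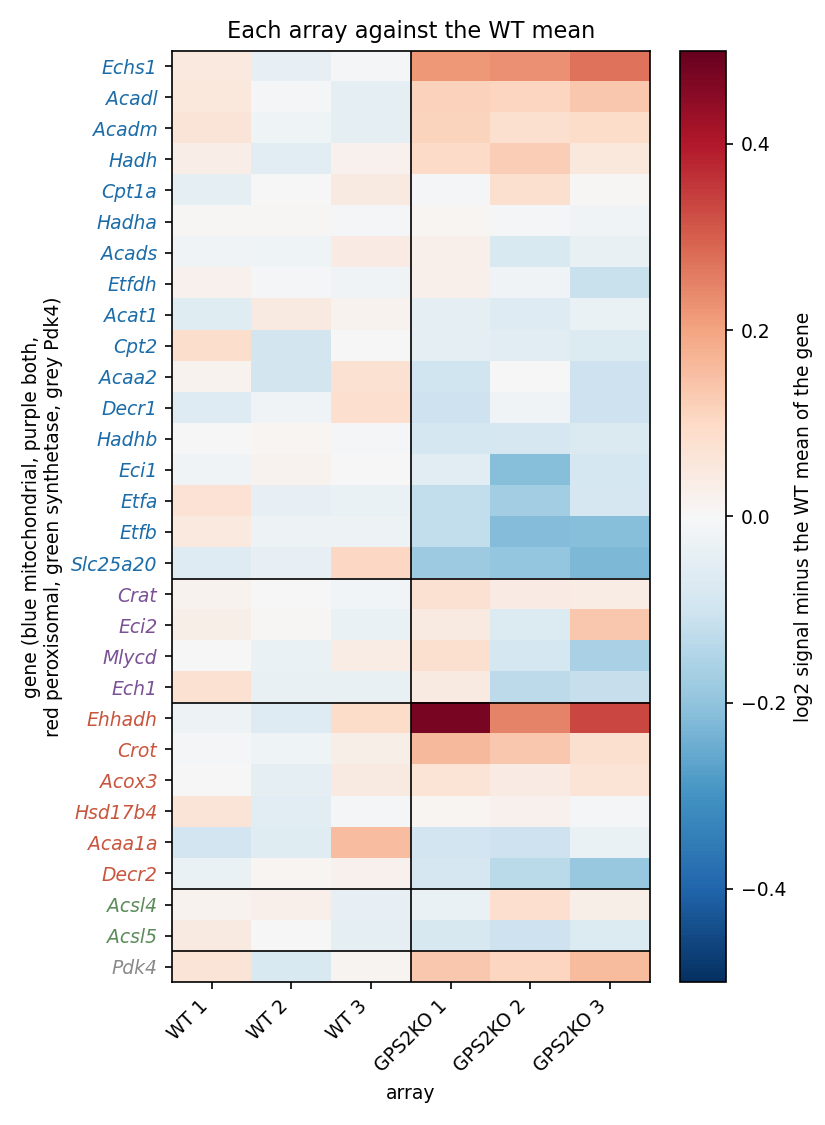
Log2 signal of each of the 30 genes on each of the 6 arrays, minus the gene's mean over the WT arrays; rows are grouped by compartment or role and columns by genotype. Among the GPS2KO columns, Echs1 and Ehhadh are the most strongly red and Slc25a20, Etfb and Etfa are among those blue in all 3, while most other rows are paler.

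Around the pathway, 113 further genes in 9 lists were measured, of which 6 rose, 3 fell and 104 did not pass. The largest rise was that of Acss1, the mitochondrial synthetase that makes acetyl-CoA from acetate. It was at 8.96, 8.94 and 9.02 in WT and at 9.61, 9.64 and 9.68 in GPS2KO, and rose by 0.67 (SE 0.0421, a factor of 1.59, limma adjusted p = 0.000256). Lpin1, a phosphatidate phosphatase that also co-activates PPAR-alpha, was at 7.73, 7.58 and 7.62 in WT and at 8.20, 8.24 and 8.20 in GPS2KO. It rose by 0.57 (a factor of 1.49, adjusted p = 0.000692). For both genes the gap between the groups was several times the spread within them, and both passed under all 12 alternatives.

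Among the transcriptional regulators of oxidation 15 were measured, with 1 rise (Lpin1), 1 fall (Pparg) and 13 that did not pass. Pparg, a PPAR with known roles in macrophages, was at 10.30, 10.27 and 10.37 in WT and at 10.15, 10.12 and 10.13 in GPS2KO. It fell by 0.18 (limma adjusted p = 0.0461), which no longer passed once any 1 of the 6 arrays was left out (adjusted p from 0.0684 to 0.141). Ppard differed by -0.03 and the co-activator Ppargc1b by 0.11, and neither passed. Ppara and the co-activator Ppargc1a were dim in both groups, with differences of 0.03 and -0.0039. The oestrogen-related receptor Esrra, at 8.122, 8.105 and 8.221 in WT and at 7.953, 7.976 and 8.004 in GPS2KO, was lower on every GPS2KO array but did not pass (adjusted p = 0.0660). The deacetylase Sirt1, at 8.37, 8.38 and 8.29 in WT and at 8.52, 8.48 and 8.53 in GPS2KO, was higher on every GPS2KO array and did not pass either (difference 0.16, adjusted p = 0.0651).

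Pyruvate dehydrogenase competes with fatty acid oxidation to supply acetyl-CoA, and its kinases switch it off while its phosphatases switch it on. In that list of 10, Pdp1 rose and Pdk1 fell. The phosphatase Pdp1 was at 9.86, 9.87 and 9.92 in WT and at 10.18, 10.18 and 10.13 in GPS2KO, a rise of 0.28 (SE 0.0393, limma adjusted p = 0.00581). The kinase Pdk1 was at 9.60, 9.55 and 9.55 in WT and at 9.21, 9.22 and 9.17 in GPS2KO, a fall of 0.36 on the log2 scale (SE 0.0387, adjusted p = 0.00181). Both passed with any 1 array left out. The kinases Pdk2 (0.02) and Pdk3 (-0.06) had overlapping groups, so of the 4 kinases measured, Pdk4 included, Pdk1 alone passed.

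Of the 14 further peroxisomal oxidation genes, 1 rose and 0 fell. Abcd2, a transporter of very long-chain acyl-CoA into peroxisomes, was at 8.34, 8.28 and 8.31 in WT and at 8.53, 8.59 and 8.54 in GPS2KO, a rise of 0.24 (limma adjusted p = 0.0113) that passed under all 12 alternatives. Its relatives Abcd3 (0.03) and Abcd4 (-0.0094) did not pass. Of 14 peroxisome assembly genes 0 passed, with a median of -0.03, and the smallest p was that of Pex16 (-0.16, adjusted p = 0.0785). At an unadjusted p under 0.05 there were 4 of these 14, beside 20.8% of all tested genes, dim ones included.

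Of the 17 further genes of mitochondrial oxidation 0 passed in limma. An unadjusted p under 0.05 was found for 6 of them, beside 20.8% of all tested genes, dim ones included. The list included Acaa1b, which is peroxisomal. The smallest p was that of Echdc2, a hydratase-like protein (-0.26, adjusted p = 0.0611). Of 10 genes of malonyl-CoA synthesis and its kinase AMPK 0 passed, and 2 had an unadjusted p under 0.05, beside the same 20.8%. Fasn, the fatty acid synthase, had the smallest p in that list (0.15, adjusted p = 0.133).

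Of 14 genes of lipolysis and lipid droplets, 1 fell. Lipe, the hormone-sensitive lipase, was at 9.49, 9.44 and 9.44 in WT and at 9.25, 9.26 and 9.25 in GPS2KO, a fall of 0.21 on the log2 scale (SE 0.0371, limma adjusted p = 0.0172). The call ended when the other Lipe probe set was averaged in (-0.11, adjusted p = 0.243), and when WT replicate 1, or any GPS2KO array, was left out (adjusted p 0.0596 to 0.0679). Pnpla2, the lipase that starts the breakdown of triglyceride, differed by -0.0042. Lipe is also an adipocyte marker, and the other 6 markers measured from that list were dim.

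Of 6 genes of ketone body metabolism, 1 rose and all 6 had higher means in GPS2KO. Aacs, which activates acetoacetate in the cytosol for lipid synthesis, was at 9.77, 9.73 and 9.80 in WT and at 10.03, 10.05 and 10.08 in GPS2KO, a rise of 0.28 (limma adjusted p = 0.00556) that passed under all 12 alternatives. Besides Acss1, the 13 genes of fatty acid activation held 1 more rise, that of Slc27a3, a fatty acid transport family member. Slc27a3 was dim, at 5.12 ± 0.08 and 5.34 ± 0.03 (SD, n = 3 each), and its rise of 0.22 (limma adjusted p = 0.0464) was lost without any 1 array and after quantile normalization, median centring or a variance trend (adjusted p up to 0.132). Over the 9 lists, 7.96% of the genes were called, beside 6.72% of all tested genes and 10.6% of the tested genes that were not dim. Of these 113 genes, 20 were dim.

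**Figure D4:**
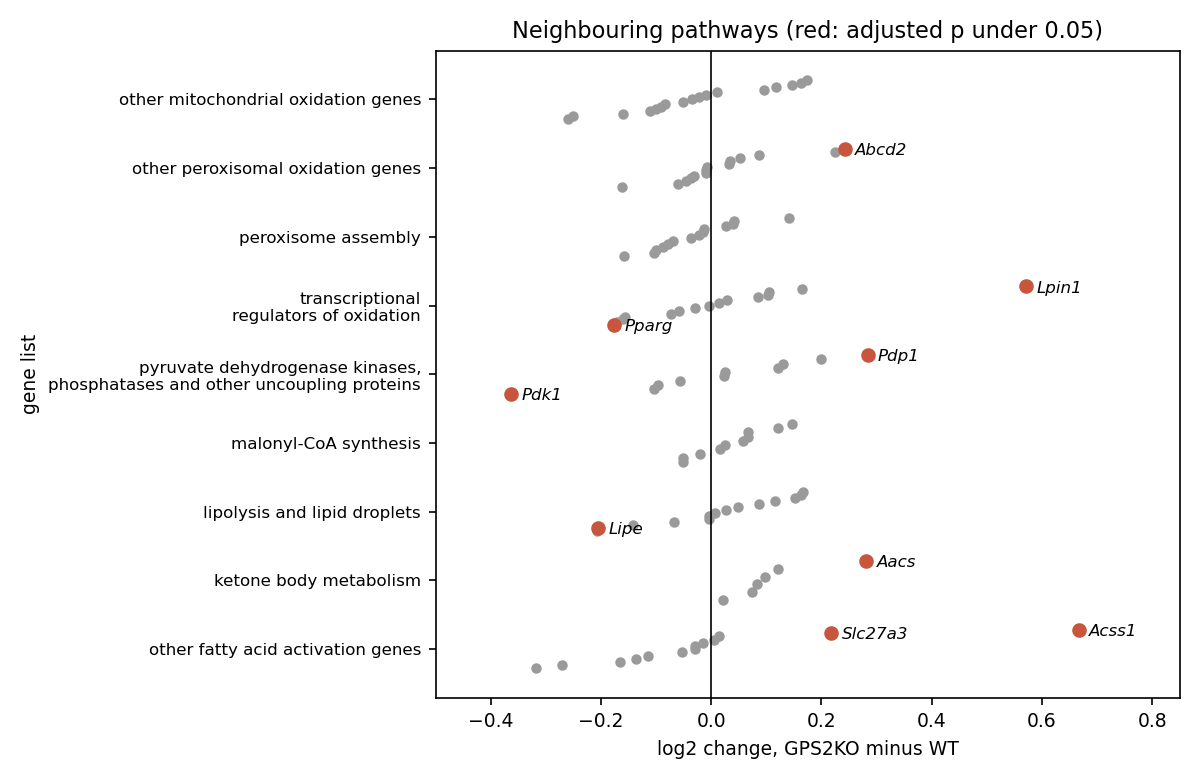
Log2 change (GPS2KO minus WT) of 113 genes in 9 neighbouring pathway lists, 1 dot per gene, sorted within each list; red dots passed the threshold of 0.05 on the limma adjusted p. Acss1 (0.67) and Lpin1 (0.57) lie farthest to the right and Pdk1 (-0.36) farthest to the left.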

How the data were processed

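Total RNA of 6 cultures was hybridised to Affymetrix arrays. The authors deposited log2 intensities per probe set, made with RMA in the R package oligo per the submitters' processing notes. Versions, array annotation and genome build are not given in the sources used here. RMA normalizes across arrays and so hides any change common to most genes, and the values carry no detection calls. Their range, 2.42 to 14.0, fits a log2 scale.

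Of 35556 probe sets, 21218 had 1 gene symbol in GEO's platform annotation, 1881 had several and 12457 were not listed. Symbols were checked by gene number against RefSeq (GRCm38.p6), which held 21185 of them. The brightest probe set stood for each of 18820 genes. limma 3.58.1 in R 4.3.3 (lmFit, eBayes, group as the only term) gave 2-sided p-values, adjusted by Benjamini-Hochberg over all genes, with a threshold of 0.05. Each change is the GPS2KO mean less the WT mean, in log2 units. Medians of lists were not tested. The calculation was tested on simulated data. The number of arrays limits the precision.

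The genes and lists were chosen with earlier results of these data known, so they are not independent evidence. Every listed gene that passed or whose groups did not overlap is given per array, and of each neighbouring list the genes that passed, or else the gene of smallest p; other genes named from those lists were chosen after their values were seen. Promoter windows came from RefSeq. The alternatives were quantile normalization, median centring, a variance trend, leaving out dim genes, averaging probe sets, the replicate number as a block, and leaving out each array.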

Additional observations from a re-analysis of the deposited data

How the results depend on the processing

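Over the 12 alternatives, the median change of the 30 fatty acid oxidation genes lay between -0.05 and -0.01 and that of the 17 mitochondrial genes between -0.07 and -0.03, while the peroxisomal median lay between -0.010, when probe sets were averaged, and 0.05. The fall of Gps2 passed under all of them (adjusted p up to 0.00270). Instead of 0 falls, there was 1 after quantile normalization, 2 after median centring, and 3 with a variance trend or without dim genes. Those 4 settings called 10%, 13.3%, 20% and 16.7% of the 30 genes, beside 7.11%, 8.08%, 11.6% and 17.4% of the genes tested in each. The 17.4% is over genes that were not dim. The other background shares include dim genes and so are not like for like, since 0 of the 30 genes were dim. With 1 array left out, 0 to 2 of the genes rose, the 0 being without WT replicate 2 or GPS2KO replicate 3, and 0 fell. Of the 30 genes, 22 kept the sign of their change under all alternatives and 8 (Hsd17b4, Acox3, Acaa1a, Cpt1a, Acsl4, Hadha, Etfdh, Eci2) did not. No gene of the 30 passed under all 12. Among the neighbouring lists, 3 falls became 10 after median centring, 8 with a variance trend, 10 without dim genes and 1 with the replicate block, and 1 to 3 with 1 array left out, being 1 without any 1 GPS2KO array. The 6 rises became 13 with a variance trend and 5 with any 1 array left out. Over all genes, 1265 calls became 2174 with a variance trend, 1962 of 11292 genes without dim genes, and 749 to 842 with 1 array left out. Rises made up 43.1% of all calls, and 30.2% after median centring. The cause of these shifts was not tested.

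Same-numbered arrays of the 2 groups did not deviate together (correlations of 0.0035, 0.0258 and -0.0060), so no variation shared by number was seen. Whether same-numbered samples were prepared together is not labelled, and these correlations cannot settle it. With the replicate number as a block, the 2 rises among the 30 genes passed (adjusted p = 0.0483 for Echs1 and 0.0357 for Ehhadh), and calls over all genes fell to 862. Among the neighbouring genes the block ended the calls of Lipe (adjusted p = 0.0612), Pparg (0.0984) and Slc27a3 (0.102).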
